A study of Bos taurus with 15 samples.

Results

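BHLHE40 and the circadian clock genes were described in subcutaneous adipose tissue of dairy cows around calving. The genes were chosen by name from a list of 10 (BHLHE40, BHLHE41, CLOCK, ARNTL, PER1, PER2, PER3, CRY1, NR1D1 and DBP), and 9 of them were among the 13896 genes of all 6 comparison tables. PER3 was not among these genes and is not analysed here. The list was drawn up with values of these same comparisons in view, so the levels, fold changes and calls of the 9 genes, which come from fits over all genes, are a description and not independent evidence.

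The circadian clock is a transcriptional loop that runs in most cells, adipocytes included, with a period of about a day. CLOCK and ARNTL (also called BMAL1) form a dimer that binds E-box elements and activates the PER and CRY genes, whose proteins come back to inhibit the dimer, while NR1D1 (REV-ERB alpha) represses ARNTL, and DBP is a clock output factor that binds D-box elements. BHLHE40 (DEC1) and BHLHE41 (DEC2) are repressors that compete for E-boxes, and BHLHE40 also responds to hormones, hypoxia and nutrients, so that it links the clock with lipid metabolism in adipose tissue.

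RNA was sequenced from dewlap fat of primiparous Holstein cows in 15 libraries, 3 for each of 5 groups. The first group was taken at -4 weeks peripartum (wkpp), 4 weeks before calving and before the diets began. The other groups came from cows on the LE (low energy) or the HE (high energy) ration from that time on, biopsied at 1 and at 16 wkpp. The study compared -4 with 1 wkpp and 1 with 16 wkpp within each diet, and LE with HE at each time after calving, to see how the negative energy balance of early lactation and its severity go with gene expression.

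The study picked 3 cows of severe and 3 of moderate negative energy balance, those most extreme at 1 wkpp, so diet and selection for energy balance cannot be told apart. Which diet stands for which energy balance is not stated in words in the sources used here. The supplement of the study lists its libraries as -4 wkpp, then severe and then moderate energy balance. The samples are listed as -4 wkpp, then LE and then HE. By that order LE would stand for severe and HE for moderate, and the groups are called by diet. The same 3 libraries at -4 wkpp stood against HE and against LE, and which cows they came from is not given in the sources used here. The study biopsied its animals at all 3 times, so libraries of 1 and 16 wkpp may be repeat samples of the same cows, and the fits treat them as separate. The sample titles carry a further tag of unstated meaning, m2 for LE at 1 wkpp and HE at 16 wkpp and m1 for the other groups, which cannot be told apart from those groups. The biopsies were taken under sedation after a fast, and the hour of each biopsy, to which clock genes respond, is not given in the sources used here. The bulk tissue mixes adipocytes with other cells, and fewer cells of a type and less RNA per cell cannot be told apart.

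The reads of each library were recovered from the mean normalised read counts of the 6 tables. They summed to between 2033952 and 14917437 exonic reads per library. The HE libraries were the shallow ones, with at most 7547692 exonic reads against at least 8087371 in the other 9 libraries, and 4 of the 6 had no more than 2920792. Depth here means these recovered reads, assigned to genes, and not the reads sequenced. In the supplement of the study, libraries of moderate energy balance had about as many sequenced reads as the rest. Their share of uniquely mapped reads was lower, and they had more reads mapped to several places. Synthetic spike-in RNAs took 2.79% to 19.06% of the recovered exonic reads in HE and 0.18% to 1.51% elsewhere. The 3 libraries of a group are numbered by falling read number, as names only. Adipocyte markers (7 of 8 listed genes measured, ADIPOQ absent, none at 0 in any library) summed to 10723 to 57220 normalised reads in HE, 67362 to 69191 at -4 wkpp and 43821 to 88708 in LE. Skeletal muscle markers (8 of 8 measured) summed to 1180 to 4116 normalised reads in HE, 87.3 to 358 at -4 wkpp and 109 to 340 in LE, and 7 of the 8 were at 0 in at least 1 library. Leukocyte markers (5 of 6 measured, MRC1 absent) summed to 563 to 2777 in HE and 1511 to 4593 elsewhere, endothelial markers (5 of 5) to 23805 to 63542 and 19341 to 36740, keratinocyte and hair markers (6 of 7, KRT1 absent) to 60.7 to 661 and 138 to 1231, and erythrocyte markers (4 of 4) to 17.8 to 351 and 12.3 to 293. Values without the 4 shallow HE libraries, which leave 1 library in each HE group, are given for the members they moved by more than the spread between libraries, and the part of muscle RNA was not tested.

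BHLHE40, the repressor at the head of the list, was at its highest before calving and in HE cows at 16 wkpp, and low in both diets 1 week after calving. At -4 wkpp its exonic normalised read counts were 1012, 1235 and 810 in libraries 1, 2 and 3. In HE cows at 1 wkpp they were 252, 288 and 450, and at 16 wkpp 1107, 609 and 1507. Every HE library at 1 wkpp lay below every library at -4 wkpp and below every HE library at 16 wkpp, on exons and on the whole gene. Of all genes tested, 31.2% had groups that did not overlap in either analysis in the first of these comparisons and 12.0% in the second. In LE cows at 1 wkpp BHLHE40 counted 689, 294 and 228, and at 16 wkpp 664, 776 and 582. LE library 1 at 1 wkpp stood apart from the other two and reached the level of 16 wkpp, so the LE groups overlapped. Between the LE groups 7.06% of all genes tested did not overlap in either analysis, and none of the 9 members was among them.

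**Figure D1:**
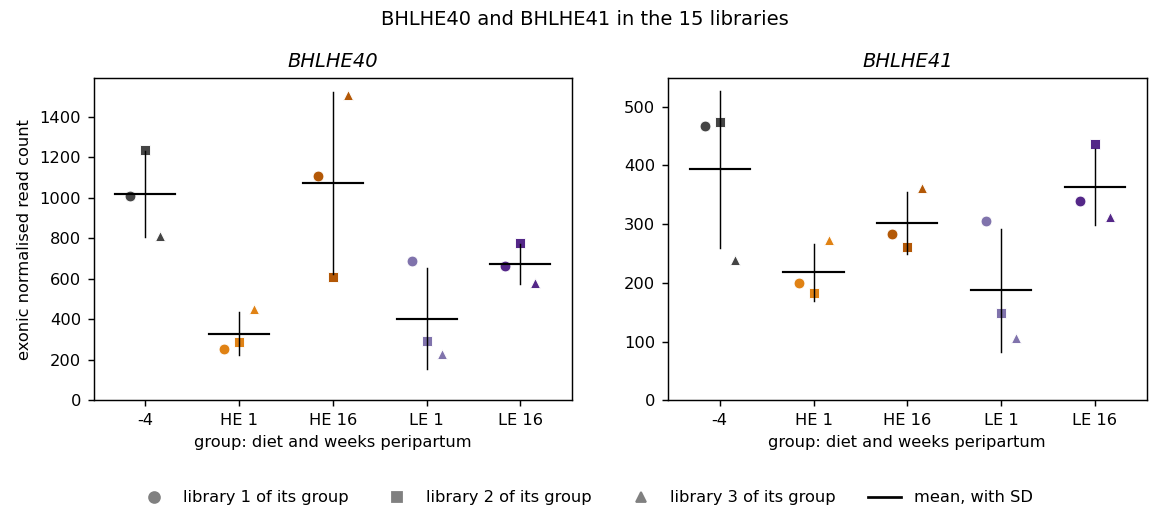
Exonic normalised read count (linear axis from 0) of BHLHE40 (left) and BHLHE41 (right) in each of the 15 libraries, by group (diet and weeks peripartum), with the mean and SD of 3 libraries. BHLHE40 lies between 252 and 450 in HE at 1 wkpp and between 810 and 1235 at -4 wkpp, and LE library 1 at 1 wkpp (circle) is above the other LE libraries of that time for both genes.

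The mean level of BHLHE40 was 1074 ± 450 (SD, n = 3) in HE at 16 wkpp, 1019 ± 212 at -4 wkpp, 674 ± 97.3 in LE at 16 wkpp, 404 ± 249 in LE at 1 wkpp and 330 ± 106 in HE at 1 wkpp. In this order HE at 16 wkpp and -4 wkpp overlapped on exons, -4 wkpp and LE at 16 wkpp did not, and the last 3 groups overlapped each with the next. On the whole gene -4 wkpp (lowest 734) and LE at 16 wkpp (highest 820) overlapped as well. The recovered exonic reads behind these values ran from 106 in the HE library 2 at 1 wkpp to 2013 in library 2 at -4 wkpp.

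The exonic level of BHLHE40 was 3.30-fold higher at -4 wkpp than in HE at 1 wkpp, a log2 fold change of 1.72 (SE 0.27, 95% interval 1.12 to 2.33). For -4 wkpp over LE at 1 wkpp it was 1.48 (SE 0.37, interval 0.63 to 2.32). The pair share the libraries at -4 wkpp, so they are not independent of each other. From 1 to 16 wkpp the log2 fold change (1 over 16 wkpp) was -1.70 in HE (SE 0.35, interval -2.50 to -0.90) and -0.91 in LE (SE 0.36, interval -1.73 to -0.08). The intervals of HE and LE overlap, which is not a test of their difference. The fit over all genes for a difference between the diets in this change, given at the end, called no gene. It is not read as evidence about BHLHE40. Without LE library 1 at 1 wkpp the LE value was -1.38, and with another library left out it was as small as -0.59. Without the shallow HE libraries, the value for -4 wkpp over HE at 1 wkpp was 1.96, with 1 HE library (252) left. That for HE at 1 over 16 wkpp was -2.12, which sets 1 library against 1 (252 against 1107) in a fit over the other 11 libraries and has no replicate check within HE.

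Between the diets BHLHE40 differed little at 1 wkpp, with a log2 fold change of LE over HE of 0.26 (interval -0.72 to 1.23), which was -0.23 without LE library 1. At 16 wkpp LE over HE was -0.58 (interval -1.25 to 0.08), with HE library 2 (609) within the LE range of 582 to 776 and the other pair above it. With a library left out this value ran from -0.94 to -0.33. Reads on the whole gene gave 1.69 for -4 over HE at 1 wkpp and -1.81 for HE at 1 over 16 wkpp. For LE over HE at 16 wkpp they gave -0.78 (interval -1.50 to -0.06), where the exonic interval included 0. Introns held a median of 6.7% of the whole gene reads of BHLHE40. Intronic reads alone, of which HE libraries at 1 wkpp held 3 to 25, gave 1.76 (SE 0.69) and -1.40 (SE 0.48).

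BHLHE41, the paralogue of BHLHE40 with a similar action on E-boxes, was likewise lower in mean level at 1 wkpp than at -4 and 16 wkpp, at a smaller range. The highest mean was at -4 wkpp for BHLHE41 and in HE at 16 wkpp for BHLHE40. Its exonic normalised read counts were 467, 473 and 239 at -4 wkpp, 199, 182 and 273 in HE at 1 wkpp, and 306, 149 and 107 in LE at 1 wkpp. Libraries at -4 wkpp overlapped both groups of 1 wkpp, through library 3 at -4 wkpp, which was lower than the other pair. At 16 wkpp BHLHE41 counted 283, 261 and 362 in HE and 340, 436 and 312 in LE. The LE libraries at 16 wkpp were above all LE libraries of 1 wkpp on exons, by 312 against 306, but overlapped with them on the whole gene. The share of all genes apart on exons alone was not computed. The log2 fold change of LE at 1 over 16 wkpp was -1.08 (SE 0.34, interval -1.86 to -0.30), against -0.50 in HE (SE 0.25, interval -1.06 to 0.05). For -4 over 1 wkpp it was 0.86 (SE 0.33) in HE and 1.16 (SE 0.40) in LE.

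BHLHE40 and BHLHE41 were highest in the same library of all 5 groups. NR1D1 and DBP shared that library with BHLHE40 in 4 of the 5 groups, all but LE at 16 wkpp. As background, 10.6% of 8023 genes with a mean level of at least 100 shared it in 4 or more groups, and 1.33% in all 5. CLOCK, PER1 and CRY1 shared it in 1 group, and ARNTL and PER2 in 2. Each of these counts rests on the order of only 3 libraries in a group.

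The genes whose log2 exonic level followed that of BHLHE40 most closely over the 15 libraries, among 8024 genes with a mean level of at least 100, were GAPDH (a glycolytic enzyme), P4HA2 (a subunit of collagen prolyl 4-hydroxylase), WNT2 (a secreted Wnt ligand), ANXA8L1 (an annexin) and NHSL1. Pearson's r was 0.904 for GAPDH (Spearman's rho 0.825), 0.901 for P4HA2 (0.829), 0.893 for WNT2 (0.825), 0.879 for ANXA8L1 (0.764) and 0.867 for NHSL1 (0.739). Without the 2 libraries farthest from the median of BHLHE40, r of the 5 genes lay between 0.798 and 0.878. BHLHE41 was at place 12 in this order, with r of 0.842, DBP at place 91 with 0.732, and NR1D1 at place 352 with 0.588. The other 5 members had r between -0.175 and 0.257. These values are a description over libraries that share groups, and may share cows, and no p-value is given. Mammals carry many near-identical processed copies of GAPDH, which makes its level uncertain.

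GAPDH, the closest in pattern, had a mean level of 3790 ± 712 at -4 wkpp, 1616 ± 441 in HE at 1 wkpp, 7340 ± 5211 in HE at 16 wkpp, 2445 ± 1155 in LE at 1 wkpp and 4242 ± 568 in LE at 16 wkpp (SD, n = 3 each). The mean in HE at 16 wkpp rests on 1 library at 13304, with 3666 and 5051 in the other pair. ANXA8L1 spread more widely, from 158 ± 55.1 in HE at 1 wkpp to 989 ± 232 in LE at 16 wkpp. Both were lowest in HE at 1 wkpp, as BHLHE40 was.

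Among the activators, CLOCK, the DNA-binding histone acetyltransferase partner of ARNTL, stood apart at -4 wkpp on exons and was even afterwards. Its exonic normalised read counts were 1292, 1243 and 1259 at -4 wkpp, above all 12 libraries after calving, which ranged from 694 to 967. Against LE at 1 wkpp CLOCK was the only member whose groups did not overlap in either analysis, beside 11.6% of all genes tested. The log2 fold change of -4 over 1 wkpp was 0.64 in HE (SE 0.20, interval 0.19 to 1.09) and 0.44 in LE (SE 0.14, interval 0.12 to 0.77). Without the shallow HE libraries the value in HE was 0.43. After calving the exonic fold changes of CLOCK between 1 and 16 wkpp and between the diets lay within -0.10 and 0.20, and those on the whole gene within -0.25 and 0.34, all with intervals that included 0. On the whole gene the lowest library at -4 wkpp (2938) and the highest in LE at 16 wkpp (2939) overlapped. On exons CLOCK varied little within groups, with a pooled SD of 0.14 on the log2 scale, which was lower than in all but 2.97% of 8024 genes. Introns held a median of 62.9% of its whole gene reads, and the intronic fold change of -4 over 1 wkpp was 0.63 in HE and 0.43 in LE.

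ARNTL, the other activator, spread widely within the groups on exons. Its exonic normalised read counts ranged from 162 to 412 at -4 wkpp, 181 to 456 in HE and 189 to 258 in LE at 1 wkpp, and 258 to 468 in HE and 115 to 413 in LE at 16 wkpp. Groups next to each other in mean level overlapped, and all 6 exonic log2 fold changes, between -0.41 and 0.08, had intervals that included 0. Introns held a median of 82.3% of the ARNTL reads, and for -4 over HE at 1 wkpp the exonic value of -0.34 (SE 0.42) stood beside 0.65 (SE 0.59) on the whole gene. At -4 wkpp library 2 counted 4006 on the whole gene, with 950 and 990 in the other pair. The exonic value ran from -0.78 to -0.07 with a library left out. For HE at 1 over 16 wkpp the whole gene value was -0.63 (interval -1.24 to -0.03) and the intronic one -0.81 (SE 0.26), beside -0.20 on exons. The whole gene counts of HE at 16 wkpp, from 1314 to 1784, also lay above those of LE at 1 wkpp, from 1190 to 1306. These groups are not among the 6 comparisons, and no share of all genes was computed for them.

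**Figure D2:**
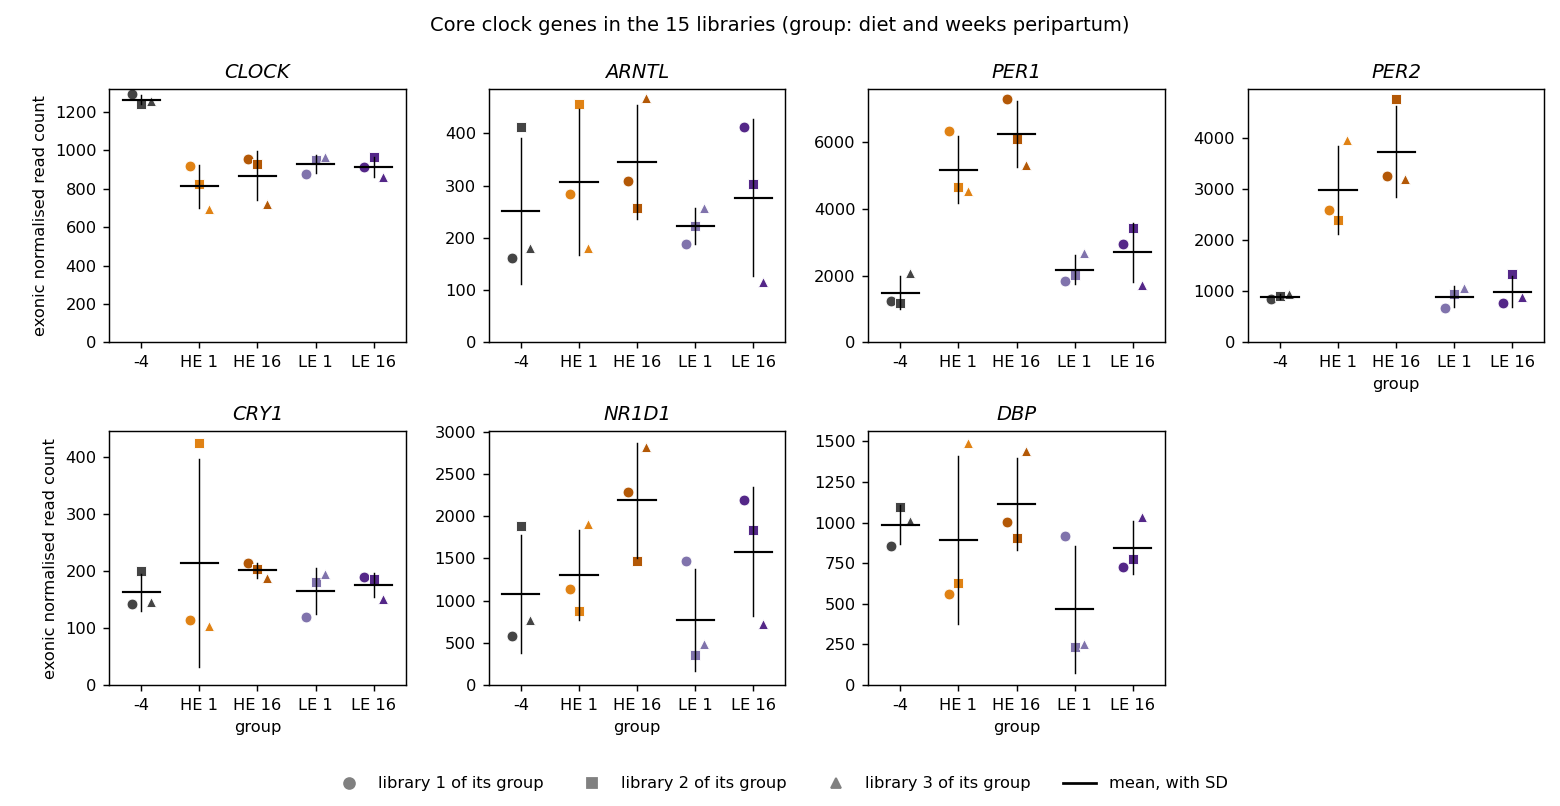
Exonic normalised read count (linear axes from 0, a scale for each gene) of the 7 core clock genes in each of the 15 libraries, by group, with the mean and SD of 3 libraries. CLOCK is highest at -4 wkpp, PER1 and PER2 are higher in the 6 HE libraries than in the other 9, and NR1D1 and DBP spread widely within groups.

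PER1 and PER2, the repressors whose transcription CLOCK and ARNTL drive, were higher in HE cows than in every other group. The exonic normalised read counts of PER1 were 6359, 4673 and 4533 in HE at 1 wkpp and 7299, 6105 and 5333 at 16 wkpp. At -4 wkpp they were 1238, 1171 and 2082, in LE at 1 wkpp 1850, 2021 and 2673, and in LE at 16 wkpp 2959, 3434 and 1714. The lowest HE library thus lay above the highest of the other 9, which was the LE library 2 at 16 wkpp.

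PER2 showed the same split. Its exonic normalised read counts were 2595, 2383 and 3961 in HE at 1 wkpp and 3241, 4752 and 3187 at 16 wkpp. The other libraries counted 841, 898 and 953 at -4 wkpp, 669, 948 and 1073 in LE at 1 wkpp, and 762, 1328 and 894 in LE at 16 wkpp. The 9 libraries outside HE did not separate by time, with means of 897 ± 55.8, 897 ± 207 and 994 ± 296 (SD, n = 3 each).

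The same order of PER1 and PER2 held on whole gene reads, where the 6 HE libraries were again above the other 9. Within HE the levels at 1 and 16 wkpp overlapped on exons, with log2 fold changes (1 over 16 wkpp) of -0.29 for PER1 (SE 0.24) and -0.34 for PER2 (SE 0.27). On the whole gene they did not overlap, with 4596 to 6845 against 6848 to 7815 for PER1 and 2873 to 4313 against 4766 to 6440 for PER2. The share of all genes apart on the whole gene alone was not computed. In both analyses 12.0% of all genes tested were apart in this comparison, and PER1 and PER2 were not among them. The whole gene values were -0.42 for PER1 (interval -0.92 to 0.08) and -0.59 for PER2 (interval -1.15 to -0.04), and the intronic value of PER2 was -1.18 (SE 0.33). Of 10348 genes, 606 (5.86%) had all HE libraries above the others in both analyses, and 248 (2.40%) had them below. The other 7 members did neither. PER1 and PER2 were the only members that separated LE from HE at 1 wkpp and at 16 wkpp, where 26.1% and 31.0% of all genes tested did so. The HE libraries also had the lower depth, the higher share of spike-ins and the higher sum of muscle markers given above. By the order of listing they were also those with the lower share of uniquely mapped reads. Within HE, the library of highest depth and lowest muscle sum at 1 wkpp (library 1, muscle sum 1180) had the highest PER1 of its group, 6359, and a PER2 of 2595 between the others. At 16 wkpp library 1 (muscle sum 1706) had the highest PER1, 7299, while its PER2 of 3241 was below the 4752 of library 2 (muscle sum 3069) and close to the 3187 of library 3 (muscle sum 3807). Library 1 of each HE group also had the highest adipocyte sum (57220 and 42059) and endothelial sum (63542 and 34178) of its group. Depth and these cell types cannot be told apart within HE, and their part was not tested.

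A gene was called when its adjusted p-value from limma was below 0.01 in both the exon and the whole gene analysis with the same sign. PER1 was the only member called between -4 wkpp and HE at 1 wkpp, where 189 of 10418 genes tested (1.81%) were called and 0.787% were called lower at -4 wkpp. Its log2 fold change of -4 over HE at 1 wkpp was -1.81 on exons (SE 0.26, interval -2.40 to -1.22), a 3.50-fold difference, and -1.78 on the whole gene (SE 0.23). The call was lost when any library but HE library 1 was left out, and without the filter on low counts. For LE over HE the fold change was -1.22 at 1 wkpp (SE 0.24) and -1.24 at 16 wkpp (SE 0.27). For -4 over LE at 1 wkpp it was -0.57 on exons (SE 0.25, interval -1.15 to 0.01) and -0.65 on the whole gene (SE 0.19, interval -1.09 to -0.20), where the counts of 1314 to 1856 at -4 wkpp lay below those of 2225 to 2718 in LE. On exons these groups overlapped, and the share of all genes apart on the whole gene alone was not computed.

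PER2 was the only member called between LE and HE at 16 wkpp, where 371 of 10159 genes tested (3.65%) were called and 2.60% were called lower in LE. Its log2 fold change of LE over HE at 16 wkpp was -1.93 on exons (SE 0.25, interval -2.49 to -1.36), a 3.80-fold difference, and -1.77 on the whole gene (SE 0.26). The call held without LE library 2 and was lost when any of the other 5 libraries was left out. At 1 wkpp LE over HE was -1.71 (SE 0.26), and -4 over HE at 1 wkpp was -1.69 (SE 0.23). For -4 over LE at 1 wkpp it was 0.03 (SE 0.20, interval -0.43 to 0.48).

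BHLHE40 and PER2 stayed outside the call between -4 wkpp and HE at 1 wkpp through the whole gene analysis. With the threshold at 0.05 they were called as well, beside 10.2% of all genes tested, and so was PER1 between LE and HE at 16 wkpp, beside 13.2%. On exons alone PER2 was also past the threshold of 0.01 between the diets at 1 wkpp, as were 1.98% of 10482 genes.

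Without the 2 shallow libraries of each HE group, PER1 had values of -2.17, -1.57 and -1.50 for -4 over HE at 1 wkpp, LE over HE at 1 wkpp and LE over HE at 16 wkpp, and PER2 had -1.57, -1.57 and -1.74. With all libraries the values of PER1 were -1.81, -1.22 and -1.24. With 1 HE library left, no gene at all was called in these comparisons, and the lone library is assumed to vary like the others. No member was called in the other 4 comparisons, where 4 genes (0.0378% of 10595) were called for -4 wkpp and LE at 1 wkpp and 0 genes (0%) between 1 and 16 wkpp in either diet and between the diets at 1 wkpp. In the latter 3, limma gave an unadjusted p-value below 0.05 in both analyses for 785 genes (8.01%) in HE over time, 476 (4.54%) in LE over time and 1900 (18.3%) between the diets at 1 wkpp.

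**Figure D3:**
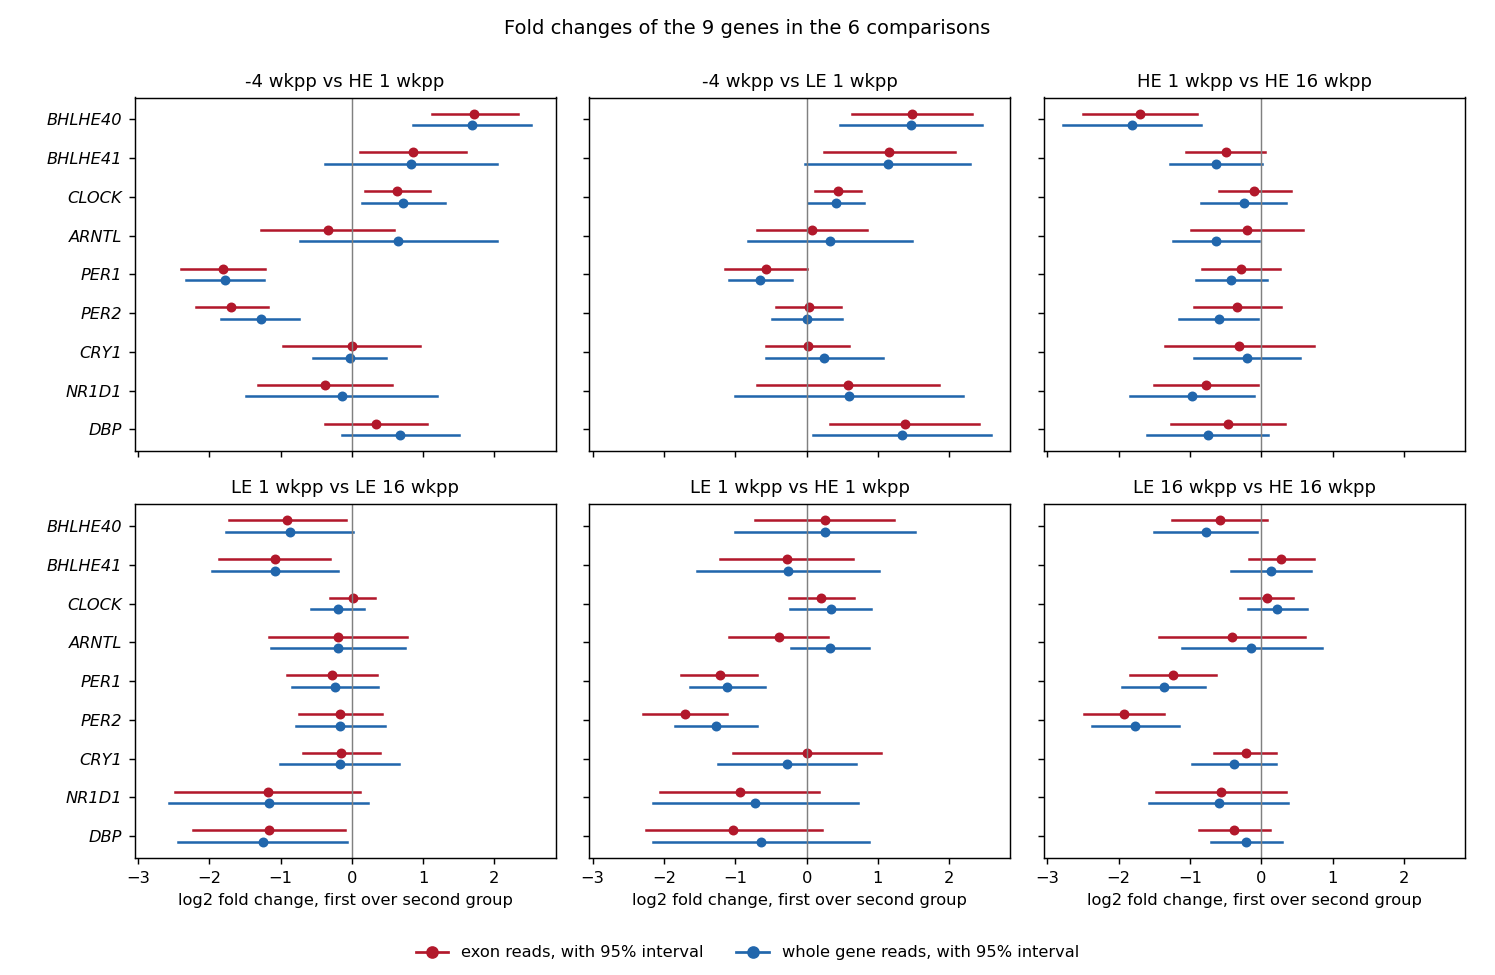
Log2 fold change (first over second group, points) with its 95% interval (lines) of the 9 genes in the 6 comparisons, on exon reads (red) and whole gene reads (blue). BHLHE40 lies at 1.72 and 1.48 for -4 over 1 wkpp and at -1.70 and -0.91 for 1 over 16 wkpp, while PER1 and PER2 lie between -1.93 and -1.22 on exons in the 3 comparisons of HE with another group.

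The intronic reads of PER1 and PER2, taken as whole gene less exonic reads, did not separate the diets at 1 wkpp. The intronic normalised read counts of PER2 were 900, 442 and 506 in HE and 426, 641 and 522 in LE at 1 wkpp, and 489, 774 and 422 at -4 wkpp. The 3 groups overlapped, and the intronic log2 fold change was -0.20 (SE 0.34) for LE over HE and -0.16 (SE 0.40) for -4 over HE at 1 wkpp. At 16 wkpp the counts were 1627, 1367 and 1074 in HE, above 500, 953 and 421 in LE, and LE over HE was -1.25 (SE 0.32).

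For PER1 the intronic values were -0.64 (SE 0.41) for -4 over HE and 0.18 (SE 0.32) for LE over HE at 1 wkpp, and -0.34 (SE 0.41) for LE over HE at 16 wkpp. Its intronic counts in HE at 1 wkpp, 326, 174 and 179, rest on 318, 54 and 42 reads. Introns held 4.4% of the PER1 reads in HE at 1 wkpp and 11.8% in LE, and 20.4% and 39.8% of the PER2 reads.

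A gap between exonic and intronic fold change also occurred in other members. For LE over HE at 1 wkpp the exonic less the intronic log2 value was -1.40 for PER1, -1.51 for PER2, -1.28 for NR1D1 and -1.25 for DBP. CLOCK was at 0.01, BHLHE40 at 0.36 and CRY1 at 0.47. Over all 9471 genes with both values the median gap was 0.01, with the 5th and 95th percentile at -1.27 and 1.52. PER1, PER2 and NR1D1 were thus beyond the 5th percentile and DBP just within it. For -4 over HE at 1 wkpp PER2 (-1.53) and NR1D1 (-1.56) were beyond the 5th percentile of -1.34, but PER1 (-1.17) and DBP (-1.25) were not. For LE over HE at 16 wkpp the gaps of the 4 genes, from -0.90 for PER1 to -0.56 for DBP, were all within the 5th percentile of -1.04. For HE at 1 over 16 wkpp the gaps had the other sign, with 0.30 for PER1, 0.84 for PER2, 0.82 for NR1D1 and 0.94 for DBP. Only DBP was beyond the 95th percentile of all genes there, 0.85. In the comparisons that hold no HE library the same gap of these 4 genes was between -0.25 and 0.26, and that of all genes was narrower as well, with the 5th and 95th percentile at -0.58 and 0.61 for -4 over LE at 1 wkpp and at -0.55 and 0.52 for LE at 1 over 16 wkpp.

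**Figure D4:**
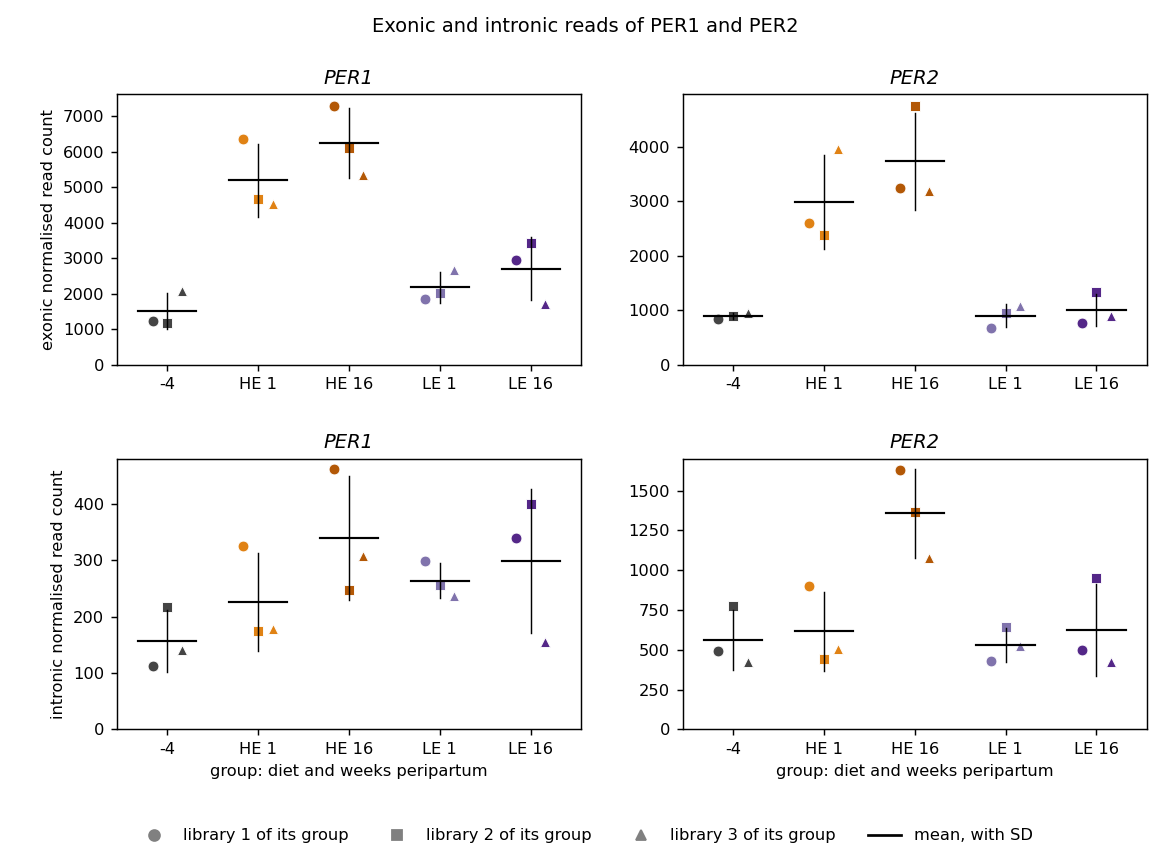
Exonic (top) and intronic (bottom) normalised read count of PER1 (left) and PER2 (right) in each of the 15 libraries (linear axes from 0), by group, with the mean and SD of 3 libraries. On exons the HE libraries lie above the others for both genes, while intronic reads overlap between the groups at 1 wkpp and separate the diets only for PER2 at 16 wkpp.

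CRY1, the partner of the PER proteins in repression, had group means close to each other on exons. Its group means were between 163 ± 32.2 at -4 wkpp and 215 ± 183 in HE at 1 wkpp (SD, n = 3 each). The large SD in HE at 1 wkpp came from library 2 at 426, with 114 and 103 in the other pair. All neighbouring groups overlapped, and the 6 exonic log2 fold changes lay between -0.31 and 0.02, but those against HE at 1 wkpp turned on its libraries. Without library 2 they were 0.53 for -4 over HE at 1 wkpp, 0.54 for LE over HE at 1 wkpp and -0.88 for HE at 1 over 16 wkpp. Without library 1 they were -0.45, -0.45 and 0.11, and without the shallow HE libraries 0.47, 0.48 and -0.89.

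NR1D1, the nuclear receptor that represses ARNTL, spread widely within groups. Its exonic normalised read counts were 585, 1880 and 768 at -4 wkpp, 1133, 882 and 1901 in HE and 1463, 360 and 481 in LE at 1 wkpp. At 16 wkpp they were 2290, 1464 and 2812 in HE and 2191, 1833 and 719 in LE. Within a group the highest library was 1.92 to 4.07 times the lowest, and the groups overlapped in all 6 comparisons. The pooled SD within groups was 0.80 on the log2 scale, above that of 97.4% of 8024 genes, whose median was 0.30. The log2 fold change of 1 over 16 wkpp was -0.78 in HE (interval -1.51 to -0.04) and -1.18 in LE (interval -2.48 to 0.12). NR1D1 overlaps the 3′ end of THRA on the opposite strand in mammals, and although the libraries were stranded, the strand setting of the counting is not given in the sources used here, so its reads are uncertain.

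DBP, the PAR bZIP output factor, was low in 2 of the 3 LE libraries at 1 wkpp. Its exonic normalised read counts there were 918, 232 and 251 in libraries 1, 2 and 3, against 729, 773 and 1033 in LE at 16 wkpp. At -4 wkpp they were 857, 1097 and 1009. HE libraries counted 560, 627 and 1491 at 1 wkpp and 1004, 906 and 1439 at 16 wkpp. The log2 fold change of -4 over LE at 1 wkpp was 1.38 (SE 0.46, interval 0.33 to 2.42), and 2.02 without LE library 1. For LE at 1 over 16 wkpp it was -1.16 (SE 0.47, interval -2.23 to -0.09), and -1.81 without that library. With another library left out these LE values were as small as 1.02 and -0.81. In HE the corresponding values were 0.34 (SE 0.33) and -0.47 (SE 0.36), with intervals that included 0. They were 0.74 and -0.89 without HE library 3 at 1 wkpp (1491), 0.09 and -0.21 without library 1 of that group, and 0.78 and -0.83 without the shallow HE libraries.

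LE library 1 at 1 wkpp was the highest of its group for BHLHE40, BHLHE41, NR1D1 and DBP, on exons and on the whole gene. It was the lowest for PER1, PER2 and CRY1 in both analyses, and on exons also for CLOCK and ARNTL, but on the whole gene it was the highest for ARNTL and between the others for CLOCK. Its depth (13943216 exonic reads) and its sum of adipocyte markers (86998 normalised reads, with 72995 and 88708 in the other pair) were within the range of LE libraries. Its sum of muscle markers was 311, against 109 and 286. Its sum of leukocyte markers was 4593, against 1620 and 1511 in the other pair, the highest of the 15 libraries, and the part of leukocyte RNA in these values was not tested. NR1D1 for LE at 1 over 16 wkpp was -1.79 without it, and BHLHE41 -1.51. With another library left out these values were as small as -0.78 for NR1D1 and -0.77 for BHLHE41.

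Other genes of the clock, from a list of 22, were tested beside the members. Of these, 19 were among the genes of the tables (TEF, CIART and FBXW11 were not) and 17 passed the minimum level for a test, without ARNTL2 and RORB. By the rule of both analyses, 0 of the 17 were called in any of the 6 comparisons, in either direction, with limma. With an unadjusted p-value below 0.05 in both analyses and the same sign there were 4 for -4 wkpp and HE at 1 wkpp (25.3% of all genes tested), 3 for -4 wkpp and LE at 1 wkpp (9.61% of all genes), 1 over time in each diet, and 4 and 3 between the diets at 1 and 16 wkpp (18.3% and 26.1% of all genes). Their median log2 fold changes on exons lay between -0.22 and 0.02, and those of all genes tested between -0.03 and 0.07. On the whole gene their medians lay between -0.21 and 0.42, and those of all genes between -0.05 and 0.11. The 0.42 was for LE over HE at 1 wkpp, where the exonic median was -0.18.

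The 4 genes of this list with the highest mean count were NR1D2, NAMPT, CSNK1D and CRY2. NR1D2 (REV-ERB beta), the paralogue of NR1D1, had log2 fold changes between -0.40 and 0.52 on exons, with adjusted p-values from limma of 0.074 or more. NAMPT, the rate-limiting enzyme of NAD salvage and a clock output, was at 0.85 for LE over HE at 1 wkpp (SE 0.38, adjusted p = 0.15, limma) and at 0.94 at 16 wkpp (SE 0.31, adjusted p = 0.056, limma). CSNK1D, a kinase that marks PER proteins for degradation, was at -0.85 for -4 over HE at 1 wkpp on exons (SE 0.21, adjusted p = 0.012, limma) and at -0.23 on the whole gene (adjusted p = 0.68).

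CRY2, the paralogue of CRY1, had exonic normalised read counts of 1384, 1094 and 1960 in HE at 1 wkpp and 1753, 2086 and 2015 at 16 wkpp, above all of the other 9 libraries, which ranged from 403 to 921. On exons LE over HE at 16 wkpp was -1.41 (SE 0.18, adjusted p = 0.0014, limma), but on the whole gene -0.52 (SE 0.25, adjusted p = 0.21), and introns held 80.7% of its reads in LE and 60.5% in HE at that time. Past the threshold in that comparison were 10.4% of all genes on exons alone and 3.71% on the whole gene alone. CSNK1E, another kinase of the PER proteins, and TIMELESS, a replication fork protein that also binds clock proteins, both named after their values were seen, also passed on exons alone for -4 over HE at 1 wkpp, with -1.52 (adjusted p = 0.001, limma) and -0.96 (adjusted p = 0.0078, limma). On the whole gene they had adjusted p-values of 0.053 and 0.035. RORA, a nuclear receptor that activates ARNTL and was likewise named afterwards, passed on the whole gene alone for that comparison, with 1.90 (adjusted p = 0.0058, limma) against 0.13 on exons, and introns held a median of 98.4% of its reads. On exons alone 16.5% of all genes passed in that comparison, and on the whole gene alone 1.68%.

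Whether the change from 1 to 16 wkpp differed between LE and HE was tested over the 12 libraries after calving, with an interaction term in limma fitted over all genes. None of the 17 genes outside the member list was called (0 of 17, with 0 at an unadjusted p-value below 0.05 in both analyses), and none of all 10253 genes, members included (0, with 289 at an unadjusted p-value below 0.05).

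The median of the 9 members differed in sign between the comparisons. On exons the median log2 fold change was -0.00 for -4 over HE at 1 wkpp, 0.44 for -4 over LE at 1 wkpp, -0.34 and -0.28 for 1 over 16 wkpp in HE and LE, and -0.39 and -0.41 for LE over HE at 1 and 16 wkpp. The corresponding medians of all genes tested were between -0.03 and 0.07. On the whole gene the member medians were 0.65, 0.41, -0.63, -0.24, -0.27 and -0.38 in the same order of comparisons, with all genes between -0.05 and 0.11. For -4 wkpp and HE at 1 wkpp the exonic median joins members on opposite sides, BHLHE40 and CLOCK higher at -4 wkpp in every library and PER1 and PER2 lower in every library.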

How the data were processed

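Total RNA of dewlap fat was depleted of ribosomal RNA and sequenced as stranded single reads by the authors. Reads were demultiplexed with bcl2fastq 2.15.0, trimmed with cutadapt 1.3, aligned with TopHat2 to bosTau8 and counted with htseq-count on exons and on the entire gene. The authors deposited 6 comparison tables from DESeq2. Their columns of fold change, standard error, test statistic, p-value and adjusted p-value hold the results of the study and were not used. The unit used is the mean normalised read count deposited by the authors, the mean over 6 libraries of reads divided by size factors, given to 15 significant digits. Every library is in 2 or 3 tables, and 0 columns of other samples were present.

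The planned analysis needed reads of single libraries, which the tables do not list. Whole reads were recovered as the only whole numbers that give these means, by lattice reduction, for 13893 of 13896 genes on exons (not COL3A1, RN7SL1 and SCD) and 13892 on the whole gene. The largest relative misfit was 5.0e-15, and size factors recomputed from the reads were within 0.0616% of those behind the means. In simulated exonic reads 13978 of 13979 entries, spike-ins included, were recovered, 0 wrongly. Libraries could be tied to their group but not to a single sample.

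Normalised read counts were reads divided by median-of-ratios size factors over 15 libraries. limma 3.58.1 (R 4.3.3, voom weights) was fitted per comparison to 3 against 3 libraries, for genes with a mean of at least 10, with Benjamini-Hochberg adjustment. The threshold of 0.01 in both analyses is that of the study. Spike-ins were left out. The p-values measure the spread between libraries. Exonic reads for -4 wkpp and HE at 1 wkpp (10532 genes) were simulated with the same dispersion for every gene. The changed genes had a mean of at least 100. Of 100 genes changed by log2 1, 41.0% passed 0.01 in the exon analysis alone, and of 100 changed by log2 2, 100%, with 0 false calls. The rule of both analyses was not simulated, so these shares do not hold for it, nor for genes of wider spread. The 9 members and the gene lists were chosen with earlier results of these data known. Named genes were all members, of the other clock genes those called and the 4 uncalled ones of highest mean count, and the 5 genes most correlated with BHLHE40. CSNK1E, TIMELESS and RORA were added after their values were seen. Alternatives were an adjusted p-value below 0.05, each analysis alone, limma-trend on log2 normalised counts with a pseudocount of 1 or 4, total count scaling, no filter, 1 fit over all libraries and leaving out libraries. No reference genome or annotation of bosTau8 was used, so no positions or sequences are given. Python 3.11.15 with numpy 2.4.6, pandas 2.3.3, scipy 1.17.1, sympy 1.14.0 and matplotlib 3.10.9 was used.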

Additional observations from a re-analysis of the deposited data

How the results depend on the processing

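For -4 wkpp and HE at 1 wkpp, 1 member was called (PER1), and the count was 3 (BHLHE40, PER1, PER2) at an adjusted p-value below 0.05 (1058 of all genes called) and on exons alone (1737), 2 (PER1, PER2) with total count scaling (319 genes) and in 1 fit over all 15 libraries (1080 genes), and 0 without a filter on low counts (64 genes) and without the 2 shallow HE libraries (0 genes). Leaving out single libraries gave 0 to 1, with 0 for each library but HE library 1. For LE and HE at 1 wkpp 0 members were called, and the count was 1 (PER2) on exons alone (208 genes), 2 (PER1, PER2) in 1 fit over all libraries (319 genes) and 0 to 1 with a library left out, the 1 being PER2 without HE library 1, where 447 genes were called. For LE and HE at 16 wkpp 1 member was called (PER2), with 2 (PER1, PER2) at an adjusted p-value below 0.05 (1346 genes) and in 1 fit over all libraries (482 genes), 0 without the 2 shallow HE libraries (0 genes) and 0 to 1 with a library left out, where only leaving out LE library 2 kept PER2. The other clock genes went from 0 calls to 1 at an adjusted p-value below 0.05, 3 on exons alone, 1 on whole genes alone and 2 in 1 fit over all libraries, all for -4 wkpp and HE at 1 wkpp (where 1058, 1737, 201 and 1080 of all genes were called) but CRY2 on exons for LE and HE at 16 wkpp (1067 genes). Calls over all genes moved as well. With a library left out they were 0 to 227 for -4 wkpp and HE at 1 wkpp in place of 189 (227 without HE library 1, at most 13 otherwise), 0 to 86 for -4 wkpp and LE at 1 wkpp in place of 4 (86 without LE library 1), 0 to 447 for LE and HE at 1 wkpp in place of 0, and 34 to 111 for LE and HE at 16 wkpp in place of 371.

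Of 736 fold changes of members under the alternatives, 37 had another sign than the main value, none of them for a member in the comparison in which it was called. Intronic reads alone and the leaving out of the shallow libraries were chosen after the data were seen. Limits lie in 3 libraries per group, in the depth of HE, and in intronic counts of few reads. No paired analysis was possible because the recovered libraries could not be tied to samples or cows, and the labels number the samples through from 1 to 15, with no number shared between groups.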
